A study of Mus musculus with 6 samples.

Results

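The genes described here are those of the cytotoxic granule in iNKT cells of the mouse liver. They are 4 granzymes (Gzma, Gzmb, Gzmk and Gzmm), the pore-forming protein perforin (Prf1), 3 other granule genes (Nkg7, Ctsw and Srgn) and 2 serpins that protect a cell from its own granzymes (Serpinb9 and Serpinb6b). The 10 were listed by name for their role in the granule, with earlier results of these data known, out of a table of 12942 genes. Of these, 9 had a row in the table, and the level of Gzmk was not analysed here. A test required a value of at least 10 in at least 3 of 6 libraries, which 8 granule genes and 11226 genes in all passed. Gzmm fell short of it.

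Killer lymphocytes store granzymes, which are serine proteases, and perforin in secretory lysosomes, where both are held on the proteoglycan serglycin, the product of Srgn. When the granule is released at a target cell, perforin opens the membrane to granzymes, and granzyme B cleaves caspases and other substrates to start apoptosis. Serpinb9 inhibits granzyme B in the cytosol. Invariant natural killer T (iNKT) cells recognise lipids on CD1d, and the iNKT1 subset, which depends on the transcription factor T-bet (Tbx21), is abundant in the liver.

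The cells were sorted from liver by CD1d tetramer and a YFP reporter. Control cells carried Tbx21Cre, in which Tbx21 drives Cre expression, and Rosa26-YFP, a reporter that Cre switches on. The cKOHet cells carried the same Cre and reporter together with Ets1F/F and Tbx21F/+, so both Ets1 alleles and 1 Tbx21 allele were floxed. Each group had 3 libraries, numbered 1, 2 and 4 in the titles. The titles name iNKT1 cells, except those of control replicate 4 and cKOHet replicate 1, which say iNKT. This Cre acts in cells that have turned on Tbx21, and the YFP gate keeps those cells in both groups. Neither ages nor the animals behind each library are named. A p-value here thus weighs a difference against the spread of these libraries, which may in part be technical.

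All values are normalised read counts as deposited, and groups of 3 values are in the order of replicates 1, 2 and 4. The column sums lay between 4996523 and 5219483, and the sequencing depth behind them is unknown. Ets1 was 7391, 6255 and 7787 in control libraries and 462, 596 and 441 in cKOHet libraries. Tbx21 was 2434, 2504 and 2765 against 2174, 2316 and 2127, and its log2 difference of -0.22 (95% interval -0.46 to 0.02) was not called (adjusted p = 0.196). A sum over the whole gene cannot show a deleted exon, so this row does not check the floxed Tbx21 allele. Replicate 4 was set apart in both groups by the X-inactivation transcript Xist, at 1.17 and 0.08 against 4337 to 5657 in the other libraries. All 10 iNKT1 and T cell identity genes had a row. Of these, Il2rb (20260 to 12376), Cxcr3 (3432 to 2406) and Cd44 (2401 to 1765) were lower in cKOHet by mean, Zbtb16 (648 to 954) was higher, and 6 were not called. Over all genes tested, 21.4% were called. Klrb1c, named after its values were seen, was not called, at 892, 545 and 2626 in controls. Among the settings tried, Klrb1c was called only without control replicate 4. The Cd44 call ended without control replicate 1, control replicate 4 or cKOHet replicate 2, and the Zbtb16 call without any 1 control or cKOHet replicate 4.

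The promoters of Gzmb, Gzma and Prf1 are shown because these 3 genes had the largest changes of the granule genes, and Prf1 changed in the opposite direction to the granzymes. Each window runs from 250 bases before to 50 bases from the RefSeq start on, on GRCm38.p6 (mm10), in the gene's own direction. Capitals mark matches, on either strand, to AGGAAG and CCGGAA, cores bound by Ets-family factors, TGTGGT, a core bound by RUNX factors, and GGTGTGA, the core of the T-box site.
Gzmb, chr14:56262285-56262584, minus strand: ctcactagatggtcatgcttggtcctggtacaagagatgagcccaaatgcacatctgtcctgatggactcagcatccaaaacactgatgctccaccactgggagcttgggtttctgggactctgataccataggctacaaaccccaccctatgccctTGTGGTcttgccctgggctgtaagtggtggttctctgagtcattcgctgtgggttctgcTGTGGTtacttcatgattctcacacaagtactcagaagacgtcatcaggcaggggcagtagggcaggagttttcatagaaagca
Gzma, chr13:113100932-113101231, minus strand: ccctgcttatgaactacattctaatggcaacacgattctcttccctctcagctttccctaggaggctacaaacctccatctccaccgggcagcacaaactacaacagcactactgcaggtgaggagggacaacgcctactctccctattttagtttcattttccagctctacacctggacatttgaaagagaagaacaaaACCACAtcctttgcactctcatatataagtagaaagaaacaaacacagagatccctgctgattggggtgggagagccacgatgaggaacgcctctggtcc
Prf1, chr10:61297586-61297885, plus strand: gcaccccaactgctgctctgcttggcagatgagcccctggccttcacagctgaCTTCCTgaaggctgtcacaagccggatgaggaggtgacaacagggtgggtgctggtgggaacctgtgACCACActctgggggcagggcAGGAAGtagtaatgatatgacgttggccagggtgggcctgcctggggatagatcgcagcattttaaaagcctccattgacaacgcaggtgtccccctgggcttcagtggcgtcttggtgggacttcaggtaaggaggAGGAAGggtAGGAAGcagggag
The Prf1 window held AGGAAG 4 times, at 197 and 109 bases before the start and at 29 and 38 bases after it, and TGTGGT once. The Gzmb window held TGTGGT at 93 and 34 bases before the start, and the Gzma window held it once, 50 bases before. The Gzmb and Gzma windows held no match to either Ets core as written here or to the T-box core. Shorter Ets cores were not searched. The RefSeq start of Gzmb lies 74 bases from the annotated GENCODE start, against 3 bases for Prf1 and 0 for Gzma. The 9 granule genes with a RefSeq window include Gzmk, which had no row, but not Ctsw, and Gzmm and Srgn each have 2 windows. In any window of a gene, AGGAAG was found in 5 genes, CCGGAA in 2, TGTGGT in 7 and GGTGTGA in 3. The 5 genes with AGGAAG were Prf1, Serpinb6b and Serpinb9, called lower, Nkg7, called higher, and Gzmm, not tested. Nkg7 held AGGAAG 34 bases and GGTGTGA 13 bases before the start. The GGTGTGA match of Gzmm and the TGTGGT match of Srgn lie in second windows, with starts 4806 and 19694 bases from the GENCODE start. The start of the Gzmk window lies 44943 bases from the GENCODE start of Gzmk. The same motifs occurred in 35.4%, 14.9%, 16.8% and 3.98% of all 32851 windows of this length. Those shares are per window and the counts are per gene, so they are not on the same scale. These matches describe letters in the sequence, not binding.

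Across the granule genes, 3 of 8 tested were higher in cKOHet libraries (Gzma, Gzmb and Nkg7), 3 were lower (Prf1, Serpinb6b and Serpinb9), and 2 were not called (Ctsw and Srgn). The call is an adjusted p under 0.05 from limma over all genes tested. By the same call 21.4% of all 11226 genes tested changed, 11.5% higher and 9.97% lower. The groups did not overlap for 7 of the 8 genes, against 35.8% of all genes tested. The median size of the log2 difference was 0.72 among the 8 and 0.30 over all genes tested, while the signed medians were 0.13 and 0.01. The 2 granzymes tested and perforin thus differed from control in opposite directions. In bulk RNA, fewer cells that make a transcript and less of it in each cell cannot be told apart.

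**Figure D1:**
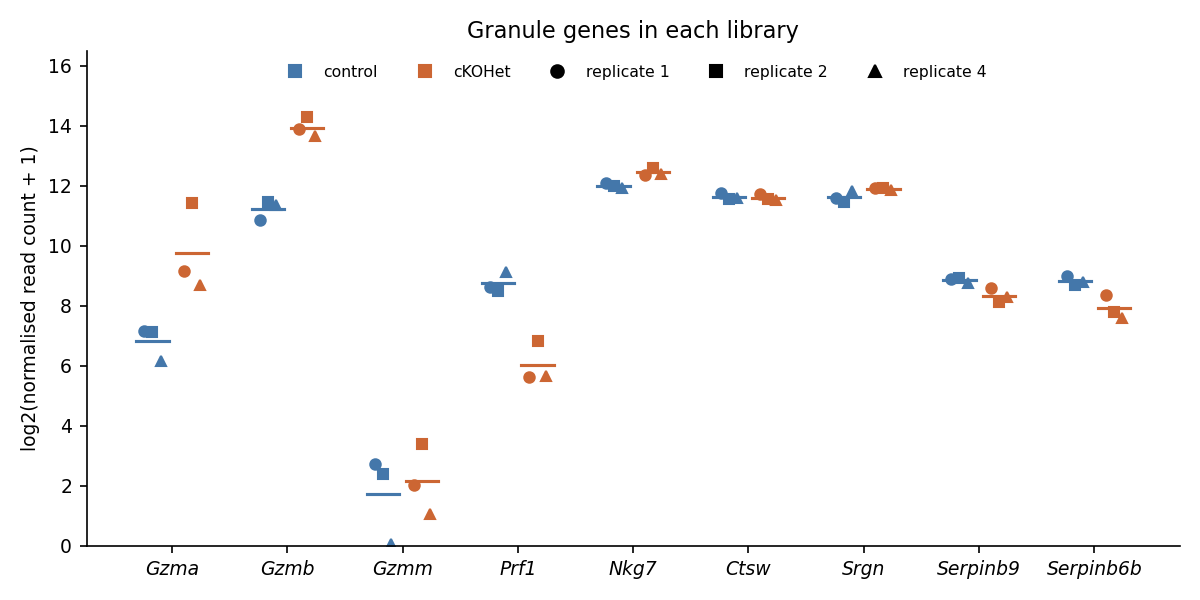
Level of each granule gene with a row in each library, as log2(normalised read count + 1). Blue marks are control and orange marks cKOHet libraries, the shape gives the replicate number, and bars are group means on the log2 scale. The Gzmb and Gzma points of cKOHet lie above, and those of Prf1 below, all control points of the same gene.

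Granzyme B, the caspase-cleaving granzyme, is encoded by Gzmb (ENSMUSG00000015437, mm10 chromosome 14, 56258838 to 56262260, minus strand). Its normalised read count was 1846, 2838 and 2643 in control libraries and 15034, 19913 and 12849 in cKOHet libraries. The lowest cKOHet library thus stood above the highest control by several-fold. The log2 difference was 2.71 (SE 0.18, 95% interval 2.32 to 3.09, adjusted p = 5.34e-08 by limma), or 6.52-fold. Per kilobase of exon, the mean level went from 1701 to 11090, and its rank among 12870 genes from 126 to 7.

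Granzyme A, a tryptase, is encoded by Gzma (ENSMUSG00000023132, chromosome 13, 113093825 to 113100981, minus strand). Its normalised read count was 141, 137 and 71.0 in controls and 565, 2719 and 411 in cKOHet. The groups did not overlap, but cKOHet replicate 2 was far above the other cKOHet libraries, at 5.57 times their mean. The log2 difference was 2.94 (SE 0.49, 95% interval 1.89 to 3.98, adjusted p = 0.000423 by limma), or 7.66-fold. Without cKOHet replicate 2 it was 2.11. With robust eBayes, which shrinks the variance of genes of unusual spread less, the adjusted p was 0.0982. Per kilobase, Gzma went from 116 ± 39.2 to 1224 ± 1282 (SD, n = 3), a level below that of Gzmb in every library.

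Granzyme M, encoded by Gzmm (ENSMUSG00000054206, chromosome 10, 79689020 to 79695261, plus strand), stayed low. Its value was 5.58, 4.22 and 0.04 in controls and 3.02, 9.41 and 1.07 in cKOHet, and it was not tested. The ranges overlapped. Of the 6 other granzymes looked up, Gzmc alone had a row. It lies 24.2 kilobases from Gzmb. Gzmc was 35.9, 44.3 and 63.4 in controls and 52.4, 45.4 and 70.7 in cKOHet, a log2 difference of 0.24 that was not called (95% interval -0.44 to 0.92, adjusted p = 0.666).

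Perforin, the protein that opens the target membrane, is encoded by Prf1 (ENSMUSG00000037202, chromosome 10, 61297833 to 61304680, plus strand). Its normalised read count was 391, 361 and 562 in controls and 48.4, 112 and 49.0 in cKOHet. All cKOHet libraries lay below all controls. The log2 difference was -2.72 (SE 0.29, 95% interval -3.33 to -2.11, adjusted p = 5.36e-06 by limma), or 6.59-fold lower. Per kilobase, the rank of its mean level among 12870 genes went from 1612 to 7075. Within cKOHet, replicate 2 had the highest value of Prf1 as well as of Gzma and Gzmb.

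The transcripts of granzyme B and perforin stood in another proportion to each other in cKOHet libraries. The ratio of Gzmb to Prf1 per kilobase was 8.50, 14.2 and 8.46 in control libraries and 559, 320 and 472 in cKOHet libraries. Since the ratio is formed within a library, the scaling between libraries does not enter it. The ratio of Gzma to Prf1 was 0.93, 0.98 and 0.32 against 30.0, 62.3 and 21.6, so Gzma was below Prf1 in every control and above it in every cKOHet library. In contrast, the ratio of Gzmb to Gzma overlapped, at 9.17, 14.5 and 26.1 in controls and 18.6, 5.13 and 21.9 in cKOHet. These ratios are descriptions with no test of their own. With 3 libraries against 3, an exact permutation test could not give a p below 0.1.

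Nkg7 encodes a granule membrane protein needed for efficient degranulation (ENSMUSG00000004612, chromosome 7, 43437073 to 43438249, plus strand). It was 4385, 4032 and 3908 in controls and 5297, 6182 and 5350 in cKOHet, with no overlap. The log2 difference was 0.45 (SE 0.12, 95% interval 0.19 to 0.71, adjusted p = 0.0146 by limma), or 1.36-fold. This call ended without control replicate 2 (adjusted p = 0.055), control replicate 4 (0.0596) or cKOHet replicate 2 (0.0739), and over the range of alternatives the adjusted p ran from 0.00941 to 0.0805. The next gene, Cldnd2, lies 2532 bases from it and was 9.14, 4.31 and 10.6 against 23.2, 33.6 and 17.7, a log2 difference of 1.55 (adjusted p = 0.0393). Cldnd2 reached 10 in 1 control, so it passed the filter through cKOHet. The Cldnd2 call ended without control replicate 1, control replicate 2, cKOHet replicate 1 or cKOHet replicate 2, and with a replicate block.

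Serglycin, the proteoglycan core on which granzymes are stored, is encoded by Srgn (ENSMUSG00000020077, chromosome 10, 62493833 to 62527451, minus strand). It was 3101, 2812 and 3590 in controls and 3847, 3878 and 3743 in cKOHet. The groups did not overlap, yet the highest control was close to the lowest cKOHet library. The log2 difference of 0.28 (95% interval 0.02 to 0.54) was not called (adjusted p = 0.124 by limma). The ratio of Gzmb to Srgn per kilobase was 0.91, 1.54 and 1.13 in controls and 5.98, 7.85 and 5.25 in cKOHet. Its neighbour Kif1bp, 11174 bases away, was 133, 145 and 85.7 against 189, 175 and 215 (log2 difference 0.70, adjusted p = 0.0329). That call ended without control replicate 4 or any 1 cKOHet library. Of 8 tested neighbours that are not granule genes themselves, these 2, Cldnd2 and Kif1bp, were called and 6 were not. Over all genes tested 21.4% were called, so 2 of 8 is close to the share in the whole table. Among the 6 was Vps26a, the nearer neighbour of Srgn at 7027 bases (0.24, adjusted p = 0.301). Vps26a was named after its values were seen.

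Ctsw encodes cathepsin W, a papain-like protease of cytotoxic lymphocytes (ENSMUSG00000024910, chromosome 19, 5465043 to 5468507, minus strand). Its values were 3465, 2989 and 3090 in controls and 3395, 3014 and 2954 in cKOHet. The ranges overlapped, and the log2 difference was not called, at -0.03 (95% interval -0.28 to 0.22, adjusted p = 0.909 by limma). Fibp, named for its position after its values were seen, overlaps Ctsw on the other strand and the strand setting is not given in the sources used here, so reads of the pair may not be separable. Fibp was at 126 to 267 over the 6 libraries and was not called either (adjusted p = 0.233).

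The transcripts of both protective serpins fell. Serpinb9, which encodes the granzyme B inhibitor (ENSMUSG00000045827, chromosome 13, 33003250 to 33017957, plus strand), was 478, 489 and 434 in controls and 383, 275 and 315 in cKOHet. Every cKOHet library lay below every control. The log2 difference was -0.54 (SE 0.15, 95% interval -0.86 to -0.22, adjusted p = 0.0174 by limma), or 1.45-fold lower. The call ended without control replicate 1 (adjusted p = 0.0611), control replicate 2 (0.0655) or cKOHet replicate 2 (0.0844), with a range over alternatives of 0.00785 to 0.0844. The ratio of Gzmb to Serpinb9 per kilobase was 9.39, 14.1 and 14.8 in controls and 95.6, 176 and 99.1 in cKOHet.

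Serpinb6b, another intracellular serpin (ENSMUSG00000042842, chromosome 13, 32965209 to 32979067, plus strand), was 503, 410 and 441 in controls and 330, 220 and 194 in cKOHet. No cKOHet library reached the lowest control. The log2 difference was -0.90 (SE 0.19, 95% interval -1.29 to -0.50, adjusted p = 0.00255 by limma), or 1.86-fold lower. It lies 24182 bases from Serpinb9. Of 50-base words of its transcript, 3.1% also occur in relatives such as Serpinb6c and Serpinb6a, so few of its reads could be split with them.

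Both serpins sit in a run of 15 clade B serpin genes over 1161 kilobases of chromosome 13, of which 4 had a row. The outermost of the run, which were not chosen as granule genes, went the other way. Serpinb1a, whose human relative inhibits neutrophil proteases, was 47.8, 12.8 and 43.5 in controls and 468, 218 and 295 in cKOHet. Its log2 difference was 3.33 (adjusted p = 2.48e-05) and 2.74 without control replicate 2. Serpinb6a was 99.6, 76.1 and 80.4 against 317, 274 and 269 (log2 difference 1.74, adjusted p = 7.67e-06). Along the chromosome the order was therefore higher, lower, lower, higher. Nqo2, named after its values were seen because it lies inside Serpinb6a on the other strand, was also higher (73.9 to 265 by mean). Whether the exons of the pair overlap was not checked, so unstranded counts may not tell them apart.

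**Figure D2:**
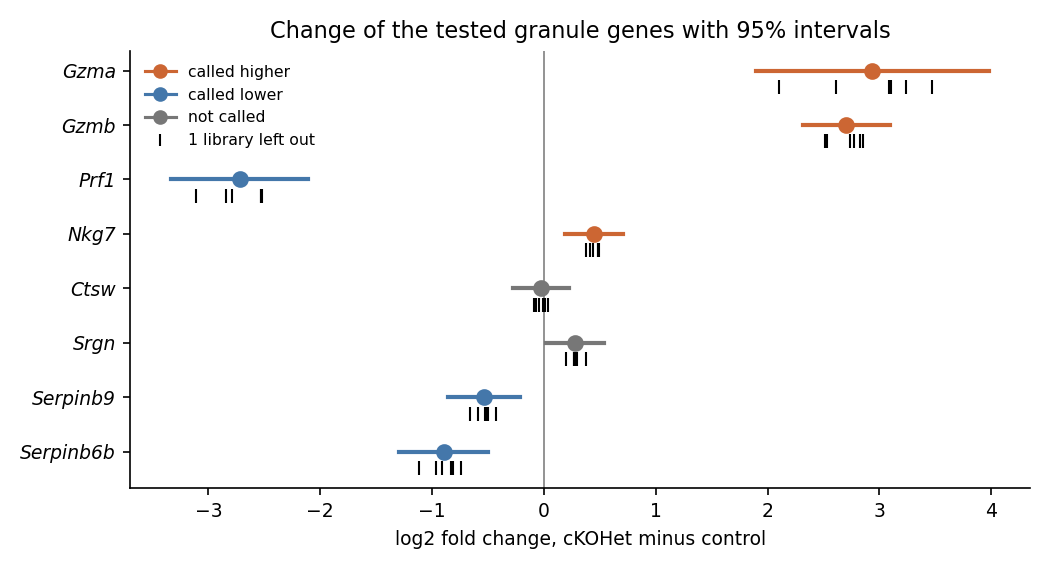
Log2 difference of cKOHet minus control for the tested granule genes, with 95% intervals from limma and small ticks for the fits that left out 1 library each. Gzma (2.94) and Gzmb (2.71) lie far to the right, Prf1 (-2.72) far to the left, and the interval of Ctsw includes 0.

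Nkg7 made up the largest share of the granule transcripts in controls, and Gzmb in cKOHet libraries. The 9 granule genes together held 0.280%, 0.282% and 0.283% of the summed normalised read count in controls and 0.572%, 0.714% and 0.496% in cKOHet. On the per-kilobase scale, Gzmb made up 12.9%, 20.1% and 18.4% of their sum in controls and 50.7%, 51.5% and 47.9% in cKOHet. Nkg7 made up 45.2 ± 2.66% (SD, n = 3) in controls and 28.2 ± 3.11% in cKOHet. Prf1 went from 1.70 ± 0.41% to 0.118 ± 0.038%. Gzma was 1.40%, 1.39% and 0.706% in controls and 2.72%, 10.04% and 2.19% in cKOHet, with replicate 2 again the highest. A share of a sum falls when another member rises, so the falls of Nkg7, Ctsw and Srgn in share are not falls in level.

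**Figure D3:**
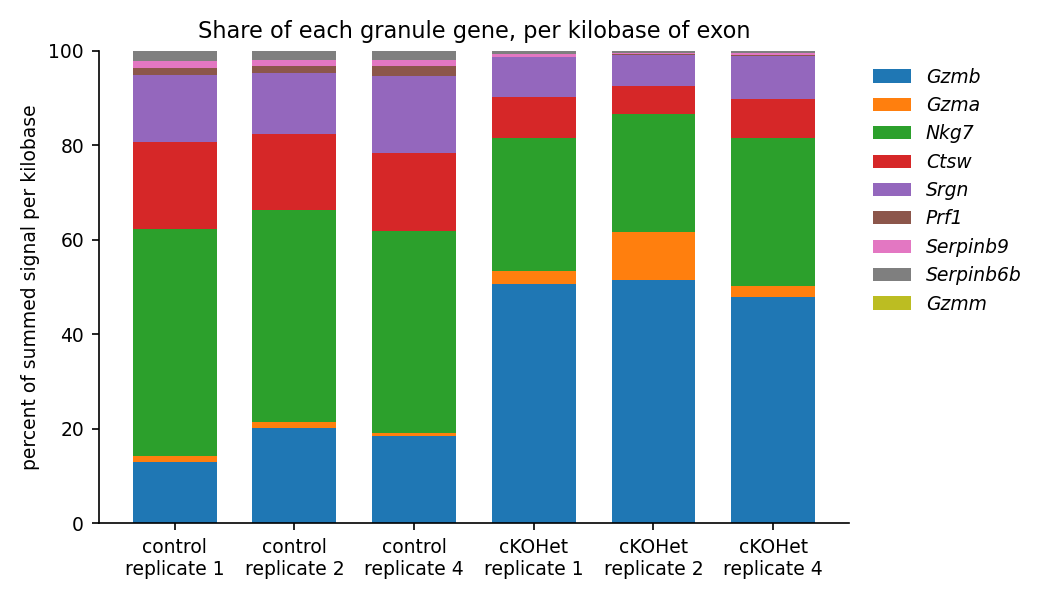
Share of each granule gene in the summed per-kilobase level of the 9 genes, for each library, in percent. Gzmb fills 12.9% to 20.1% of the control bars and 47.9% to 51.5% of the cKOHet bars.

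Granzymes are made as zymogens that cathepsin C (Ctsc) activates. Of 13 tested genes for processing granule proteases and for inhibiting them, 6 were higher in cKOHet, 3 lower and 4 not called. Their median log2 difference was 0.68, against 0.01 over all genes tested. Both the 6 and this median include Lgmn, which could pass the filter only by being higher. Over all genes tested, 11.5% were higher and 9.97% lower. Ctsc was 487, 396 and 438 in controls and 902, 1129 and 1196 in cKOHet (log2 difference 1.28, adjusted p = 6.85e-06). Cst7, which encodes cystatin F, an inhibitor of cathepsin C, was 371, 285 and 284 against 599, 1048 and 838 (1.37, adjusted p = 5.78e-05). The activator and its inhibitor were thus both higher, in all cKOHet libraries. The other 4 higher genes, named after their values were seen, encode the protease cathepsin D (Ctsd, 5837 to 9357 by mean, log2 difference 0.68), the inhibitors cystatin C (Cst3, 262 to 468, 0.83) and cystatin B (Cstb, 105 to 181, 0.77), and legumain (Lgmn, 3.93 to 39.1, 3.53). Cstb was no longer called when control replicate 4, or replicate 1 or 2 of cKOHet, was left out. Lgmn reached 10 in cKOHet libraries only, so it could pass the filter only by being higher, and its difference was 2.68 without control replicate 1 and 4.38 without control replicate 2.

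The lower genes of this list include a pair of serine protease inhibitors. Serpina3f was 1137, 692 and 1159 in controls and 63.5, 146 and 216 in cKOHet (log2 difference -2.93, adjusted p = 8.9e-06). Serpina3g was 1632, 906 and 2034 against 106, 194 and 383 (-2.85, adjusted p = 2.62e-05). Neither pair of groups overlapped. These neighbouring relatives are alike in sequence, and how reads were shared between them is not given in the sources used here. Ctss, named after its values were seen, was the third (log2 difference -0.66, adjusted p = 0.044), and its call ended without control replicate 1, control replicate 2, cKOHet replicate 1 or cKOHet replicate 4.

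Of 42 tested genes for building, moving and releasing granules, 4 were higher, 2 lower and 36 not called, against 21.4% called over all genes tested, so calls were no more frequent here than in the table as a whole. Their median log2 difference was 0.26. Igf2r, a mannose 6-phosphate receptor that carries granzymes to lysosomes, was 794, 732 and 727 in controls and 1682, 1701 and 2201 in cKOHet (log2 difference 1.30, adjusted p = 2.73e-06). Lamp1, a lysosomal membrane protein that appears on the surface after degranulation, was 788, 834 and 767 against 1256, 1325 and 1301 (0.70, adjusted p = 0.000269). Lamp2, its relative, was 247, 198 and 173 against 361, 388 and 381 (0.88, adjusted p = 0.0010). The fourth higher gene, Hps1, named after its values were seen, was called at adjusted p = 0.027. That call ended without any of 4 libraries, namely replicates 1 and 2 of each group.

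Lyst, which limits granule size and is mutated in Chediak-Higashi syndrome, was lower, at 3595, 4427 and 3187 in controls and 2046, 1383 and 2564 in cKOHet (log2 difference -0.93, adjusted p = 0.0019). Its call ended with eBayes without trend. Coro1a, an actin regulator named after its values were seen, kept its call under every setting tried. It was 11465, 11327 and 13140 against 7943, 7942 and 5907 (-0.73, adjusted p = 0.00212). The genes best known for granule docking and fusion, also named after their values were seen, were not called. Rab27a had a log2 difference of 0.24 (adjusted p = 0.168), Unc13d 0.29 (0.136), Stx11 0.25 (0.439) and Stxbp2 0.06 (0.825). Unc13d was called without control replicate 4.

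**Figure D4:**
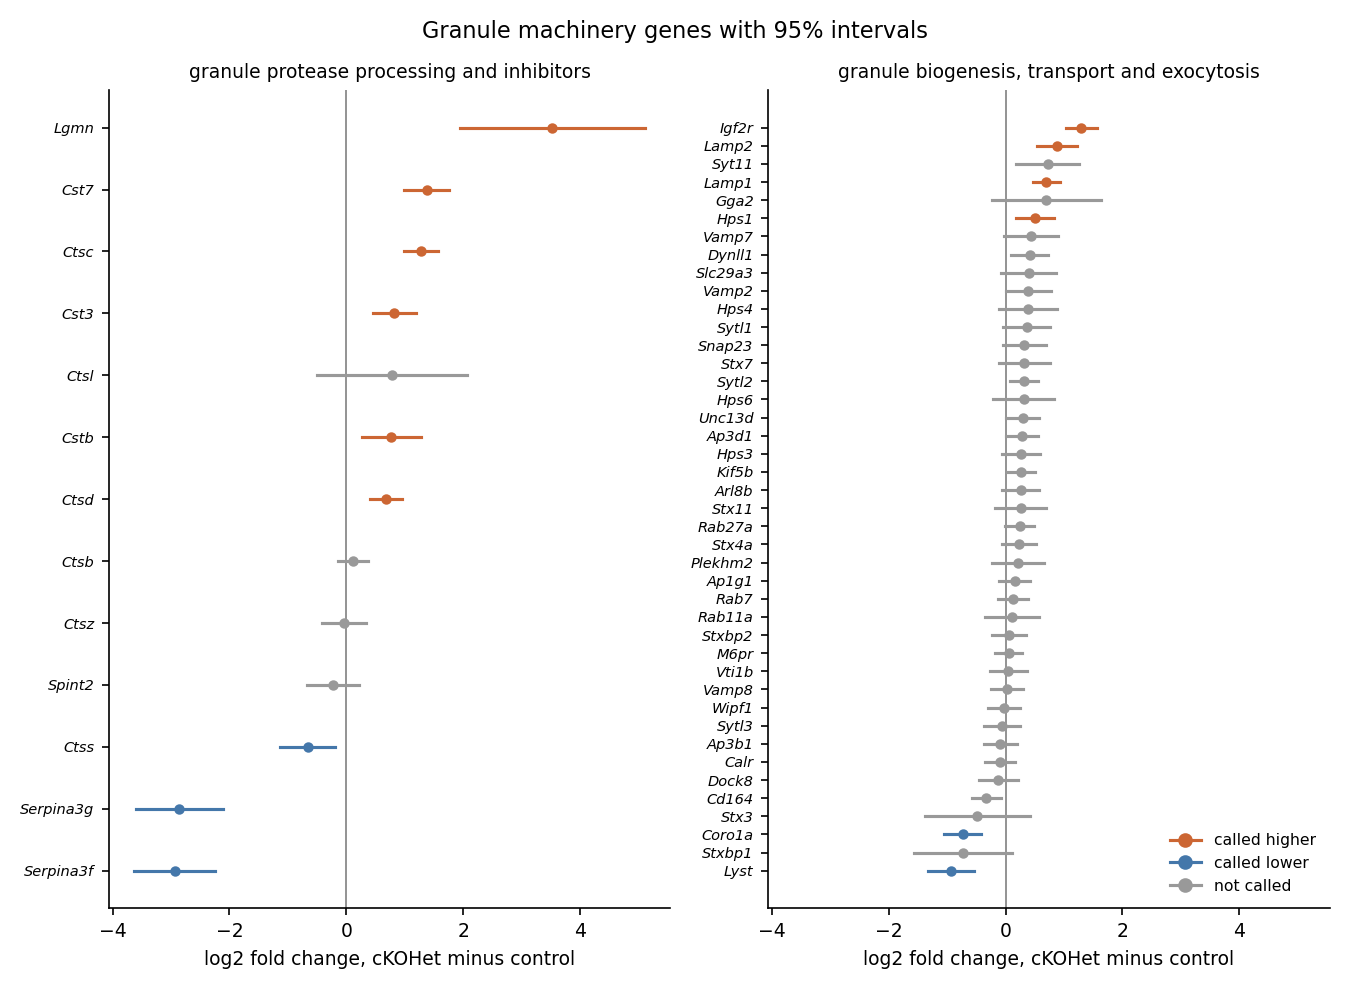
Log2 difference of cKOHet minus control for the tested genes of granule protease processing and of granule biogenesis, transport and exocytosis, with called genes marked. Of 55 genes, 10 were called higher, Lgmn among them, and 5 lower, with Serpina3f and Serpina3g at the low end.

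Secreted and surface effectors outside the list of granule genes changed in both directions. Of 9 tested such genes, 2 were higher and 3 lower, against 11.5% higher and 9.97% lower over all genes tested. Ifng, encoding interferon gamma, was 473, 401 and 351 in controls and 1686, 2157 and 1566 in cKOHet (log2 difference 2.14, adjusted p = 7.28e-08). The chemokine gene Ccl5 was 2424, 1792 and 2084 against 8010, 13101 and 8141 (2.19, adjusted p = 3.87e-07). Ltb, encoding lymphotoxin beta, went from a mean of 2831 to 941 (-1.58, adjusted p = 4.79e-07). Xcl1, a chemokine gene, went from 749 to 206 (-1.84, adjusted p = 2.11e-06). The death ligands, named after their values were seen, differed from each other: Tnfsf10 went from 1100 to 572 (-0.95, adjusted p = 9.95e-05), while Fasl was 718 and 761 by mean and was not called (0.09, adjusted p = 0.758).

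Of 21 tested transcription factors linked to granule genes, 9 were higher, 3 lower and 9 not called, against 11.5% higher and 9.97% lower over all genes tested. The 9 higher include Eomes, which reached 10 in 1 control and so passed the filter through cKOHet. Ikzf2 was 281, 221 and 193 in controls and 980, 1054 and 1005 in cKOHet (log2 difference 2.14, adjusted p = 7.55e-08). Zeb2, which works with T-bet in killer cell maturation, was 20.1, 12.8 and 6.47 against 143, 150 and 176 (3.60, adjusted p = 4.94e-06). Prdm1, encoding Blimp-1, went from a mean of 164 to 426 (1.37, adjusted p = 9.41e-05). Runx3, a factor that acts with T-box proteins at granule genes in CD8 T cells, went from 1061 to 1789 (0.75, adjusted p = 0.000168).

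The genes most like each of the 3 strongest members over the 6 libraries were picked by the smallest root mean square difference of centred log2 values. For Gzma they were B4galnt4 (0.432), Cd244a (0.484) and Car5b (0.509). All 3 were highest in cKOHet replicate 2, which a pick by likeness to Gzma favours, so this is no separate observation. The signalling lymphocyte receptor gene Cd244a was at 413 there against 82.6 and 149 in cKOHet replicates 1 and 4. Its log2 difference was 3.11, and 2.48 without that library. For Gzmb they were Myadm (0.187), Tmem231 (0.187) and Cobll1 (0.225), and for Prf1 Icosl (0.13), Fam210b (0.257) and Hid1 (0.268). Icosl, encoding the ligand of ICOS, was 201, 183 and 228 in controls and 23.2, 48.1 and 20.9 in cKOHet. Car5b and Myadm were under 10 in every control.

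Markers of other cells were looked at beside the granule genes, since other killer cells also make granzymes. Cd8a was 20.1, 10.7 and 12.8 in controls and 237, 1657 and 440 in cKOHet (log2 difference 5.21, adjusted p = 2.19e-06), and 4.43 without cKOHet replicate 2 and 5.83 without cKOHet replicate 1. Within cKOHet the same replicate 2 was highest in Cd8a, Gzma and Gzmb. It was also highest in Prf1, Nkg7, Srgn, Ccl5 and Ifng, but not in Ctsw, Serpinb9 or Serpinb6b. Cd8b1 overlapped, at 3.56, 31.5 and 16.9 against 15.1, 35.4 and 13.6 (adjusted p = 0.607). Of 10 NK cell markers 9 had a row, and they summed to 231 to 327 in controls and 389 to 438 in cKOHet. The defining NK gene Ncr1 was 8.45 to 9.47 in controls and 5.52 to 7.05 in cKOHet, too low to be tested. Of the 7 tested, Klra8 (3.05 to 39.2 by mean), Klra9 (31.1 to 99.7) and Eomes (4.51 to 17.6) were higher, and Klra4 (12.96 to 31.2), Itga2, Fcer1g and Gzmc were not called. Over all genes tested, 11.5% were higher and 9.97% lower. Klra8 reached 10 in cKOHet libraries only, so it could be tested only by being higher there. Klri2, which was not tested, was at 11.0, 8.49 and 44.0 in controls against 5.05, 7.33 and 6.29, lower in cKOHet with no overlap. Itga2, Fcer1g and Klri2 were named after their values were seen. Eomes reached 10 in 1 control, so it passed the filter through cKOHet. The Eomes call ended in every fit with a library left out except that without control replicate 2.

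Among markers of mast cells and basophils, which also hold granule proteases, 2 of 12 had a row and summed to 5.45 to 14.0 in controls and 80.7 to 125 in cKOHet. In cKOHet nearly all of this was Cpa3, encoding a carboxypeptidase, at 1.69, 6.45 and 4.35 in controls against 123, 79.8 and 112. Cpa3 reached 10 in cKOHet libraries only, so it could be tested only by being higher there. The other marker with a row, Hdc, which encodes the histamine-forming enzyme, was at 12.3, 6.29 and 1.10 in controls against 2.02, 0.87 and 0.03, a lower mean with overlap. Hdc was not tested and was named after its values were seen. Macrophage and Kupffer cell markers, all 11 with a row, summed to 38.8 to 103 in controls and 170 to 238 in cKOHet. Of the 6 tested, Cd5l, Csf1r and Clec4f were higher, against 11.5% higher over all genes tested. The other 3 were not called, namely C1qa (adjusted p = 0.0991), Lyz2 (25.0 to 37.4 by mean, 0.296) and Cd68 (9.58 to 14.2, 0.466). Lyz2 and Cd68, whose groups overlapped, were named after their values were seen. Cd5l and C1qa were under 10 in every control and could be tested only by being higher in cKOHet. Csf1r, Clec4f and Cd68 reached 10 in 1 control each, so they too passed the filter through cKOHet. The Cd5l difference of 3.09 was 2.43 without control replicate 2, and that of Clec4f, 2.31, was 1.64 without control replicate 4 and lost its call without cKOHet replicate 2. Hepatocyte markers summed to 233 to 433 and 275 to 670, with Alb (adjusted p = 0.193) and Apoa1 (0.357) not called. Of the 10 neutrophil and 6 B and plasma cell markers none had a row. The part of other cells in the granule gene differences was not tested.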

How the data were processed

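Normalised read counts of 6 libraries, a signal per Ensembl gene, were used as deposited. Per the submitters' processing notes, the authors named Trimmomatic 0.33, STAR, HTSeq 0.6.1, DESeq2 and the mm10 build. Strand setting and annotation: not given in the sources used here. Low values were whole multiples of 1 step (within 0.02) for 99.6% in cKOHet replicate 1 but 16.2% to 36.5% in the others, so reads were not recovered and no count test was run. The column code of replicate 1 joins a pair of names in each group, unexplained in the labels.

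GENCODE M21 on GRCm38 named 12870 of 12942 genes and gave positions and exon lengths. Genes at 10 or more in at least 3 libraries were tested as log2(value + 1), for the difference of cKOHet from control, by limma 3.58.1 (R 4.3.3; eBayes with trend, two-sided) and Benjamini-Hochberg adjustment over 11226 genes. Every adjusted p is from this fit unless another is named. Fold changes on this scale understate those of low genes. The procedure was tested on simulated data. Promoters came from RefSeq (GRCm38.p6), where 9 of 10 granule genes matched, 2 of them with 2 windows.

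The members and lists were chosen with earlier results of these data known. Named genes were the members, Ets1, Tbx21, the 4 genes with the smallest adjusted p of each other list (2 where none was called), markers of other cells with no overlap and a mean of at least 50 in a group, called neighbours of members, and the 3 genes most like Gzma, Gzmb and Prf1. Others are marked in the text. Alternatives covered the pseudocount, filter, scaling, variance model, replicate block, library sex by Xist, threshold and each library left out, 20 settings in all. The fit on the libraries with high Xist alone was chosen after seeing the data.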

Additional observations from a re-analysis of the deposited data

How the results depend on the processing

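Under 20 alternative settings Gzmb, Prf1 and Serpinb6b kept their direction and their call, and Srgn its direction without a call. Gzma lost its call with robust eBayes only (log2 difference 2.94). Nkg7 lost its call with eBayes without trend and at an adjusted p under 0.01 (0.45 in both), with the Xist-high libraries alone (0.44), and in 3 of 6 fits with a library left out, over which it ran from 0.38 to 0.50. Serpinb9 lost its call with eBayes without trend and at an adjusted p under 0.01 (-0.54 in both), with the Xist-high libraries alone (-0.57), and in 3 of 6 left-out fits (-0.66 to -0.42). Ctsw changed sign without control replicate 1 and without cKOHet replicate 4 (left-out range -0.090 to 0.036, with 0.011 for the latter), and was never called. Genes called over the table fell from 2407 to 1476 at an adjusted p under 0.01, and the machinery genes called lower from 5 to 3 with eBayes without trend. The causes were not tested. Other scalings moved the median of all genes by less than 0.1.

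The replicate numbers were not treated as pairs in the main fit: the deviations of same-numbered libraries correlated at 0.092, 0.088 and 0.055. The deviations of each library correlated best with those of its own number. In both groups replicate 4 was low in Xist and the column code of replicate 1 joined a pair of names. The labels do not say that same-numbered libraries are pairs. With a replicate block 2412 genes were called, and no granule gene changed its call. The depth is unknown, so low values such as those of Gzmm cannot be given a counting interval, and 3 libraries a group limit what small differences can show.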
